A study of Mus musculus with 6 samples.

Results

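Cell cycle genes were examined by phase in the stria vascularis of mice with a mutation of Esrrb (called Errb or Nr3b2 in the labels) and of wild-type mice. The genes were a list of 44 drawn up with earlier results of these data known: 24 genes of mitosis, 15 of DNA replication, 2 D cyclins and 3 Cdk inhibitors. Of these, 43 had a probe set annotated with exactly 1 gene symbol, out of 18193 genes with such a probe set. Ccnb1 was not matched and is not analysed here. Where a gene had several probe sets, its best expressed probe set, by the mean of the 6 arrays, stood for it.

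The stria vascularis is the secretory epithelium of the cochlear lateral wall, built of marginal, intermediate and basal cells, and Esrrb encodes an orphan nuclear receptor. Total RNA was taken from 3 wild-type pools and 3 Errb mutant pools, each of 10 mice, and each pool was hybridised to 1 Affymetrix array. The mutant came from a conditional knock-out; neither the Cre driver nor the strain or the deleted part is stated in the labels. The design text speaks of inner ears and the labels of stria vascularis, and the labels state an age, postnatal 3 to 5 days, only for replicate 1 of the wild type. Same-numbered arrays were compared as pairs 1, 2 and 3, and values are deposited log2 expression levels. A difference is mutant minus wild type on that log2 scale, as the mean ± SD of 3 pairs, and a gene passed where the adjusted p from limma with the pair as a block, over 45037 probe sets, was under 0.05. Nothing in the labels says whether pools were separate litters. With the pair as a block, the p-values rest on the spread of the 3 within-pair differences, not on the spread between pairs. That spread may be technical, and the small number of pairs limits the precision.

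The cell cycle turns on cyclin-dependent kinases, whose cyclin partners change from phase to phase. D and E cyclins drive the passage from G1 into S phase, where E2F factors switch on the genes that license origins, unwind DNA and supply nucleotides. Genes of mitosis are switched on later, largely through the CHR (cell cycle genes homology region), a short promoter element read by complexes of the DREAM and MMB type, often beside CCAAT boxes read by NF-Y. Cdkn1a (p21), Cdkn1b (p27) and Cdkn1c (p57) form the Cip/Kip family, which binds cyclin-Cdk complexes and holds cells out of the cycle. In mice the stria goes on maturing after birth.

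The division by phase can be seen in the promoters, a feature the list of genes did not use. Windows of 300 bases (250 before and 50 after the annotated start, RefSeq, GRCm38.p6) were given for 33 of the 43 genes. The 10 without a window were Ccna2, Aurkb, Kif20a, Tpx2, Mcm4, Ccne2, Gins2, Ccnd1, Ccnd2 and Cdkn1c. Letters were searched on both strands: TTTGAA or TTCGAA for the CHR, TTTGGCGC or TTTCGCGC for E2F, GCGGGAA as a further E2F form, and CCAAT. CHR letters were in 16 of 19 mitosis genes (84.2%) and 2 of 12 replication genes (16.7%), against 21.7% of 27025 genes in the table. E2F letters of the first form were in 5 of 12 replication genes (41.7%), namely Mcm3, Mcm5, Mcm6, Mcm7 and Cdt1, and in 1 of 19 mitosis genes (Cdk1), against 0.929% of all genes. GCGGGAA was in 5 of 12 replication genes and 0 of 19 mitosis genes (5.29% of all), and CCAAT in 17 of 19 mitosis and 8 of 12 replication genes (41.1% of all). The windows of Cdkn1a held none of these letters and that of Cdkn1b held CCAAT alone.

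Below are the 200 bases before the start of 5 genes, shown because they carry the letters of their phase and because the values of these genes are described further on. They are on GRCm38.p6, for Mki67 chr7:135716380-135716579 (minus strand), Cdk1 chr10:69352913-69353112 (minus), Cdc20 chr4:118437344-118437543 (minus), Mcm5 chr8:75109309-75109508 (plus) and Mcm6 chr1:128359706-128359905 (minus). Each runs 5′ to 3′ on the strand of the gene, and capitals mark CHR or E2F letters; in Mcm5 and at the first site of Mcm6 a forward and a reverse E2F match overlap and make a longer run.
Mki67: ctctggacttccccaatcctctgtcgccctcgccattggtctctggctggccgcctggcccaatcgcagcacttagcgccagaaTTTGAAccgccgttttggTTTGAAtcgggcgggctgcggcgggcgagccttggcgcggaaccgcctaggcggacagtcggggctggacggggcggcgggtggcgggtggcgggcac
Cdk1: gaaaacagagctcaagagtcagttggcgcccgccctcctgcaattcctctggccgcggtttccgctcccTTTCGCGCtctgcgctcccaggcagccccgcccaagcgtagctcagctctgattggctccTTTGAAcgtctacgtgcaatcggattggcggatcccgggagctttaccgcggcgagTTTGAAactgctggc
Cdc20: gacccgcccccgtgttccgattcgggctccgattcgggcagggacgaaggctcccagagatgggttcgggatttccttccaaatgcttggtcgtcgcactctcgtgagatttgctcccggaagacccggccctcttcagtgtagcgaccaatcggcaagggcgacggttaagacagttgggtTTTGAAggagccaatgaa
Mcm5: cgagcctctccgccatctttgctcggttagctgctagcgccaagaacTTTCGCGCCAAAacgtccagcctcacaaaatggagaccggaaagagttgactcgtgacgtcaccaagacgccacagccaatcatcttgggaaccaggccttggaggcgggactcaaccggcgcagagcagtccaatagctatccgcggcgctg
Mcm6: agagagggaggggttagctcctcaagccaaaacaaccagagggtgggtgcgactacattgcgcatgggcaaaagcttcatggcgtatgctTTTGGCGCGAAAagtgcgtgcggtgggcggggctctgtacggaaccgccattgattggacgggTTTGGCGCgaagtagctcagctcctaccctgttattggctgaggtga
The mitosis promoters of Mki67 and Cdc20 hold CHR but no E2F letters, Cdk1 holds 2 CHR matches and 1 E2F match, and Mcm5 and Mcm6 hold E2F but no CHR letters. A match is a description of the letters and does not show that a factor is bound.

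Levels of these genes differed little between the genotypes. No cell cycle gene passed (0 of 43 in limma; smallest adjusted p = 0.325, for Kif20a), where 42 of 45037 probe sets, 0.0933%, passed over the whole table, as did 0.148% of all genes by their best expressed probe set. The mean differences nonetheless lay mostly above 0: in 23 of 23 mitosis genes, 13 of 15 replication genes, 2 of 2 D cyclins and 1 of 3 Cdk inhibitors, against 51.3% of all genes and 57.6% of the genes above the median level of all probe sets. At an unadjusted p under 0.05 in limma, 11 genes were higher and 1 was lower (Cdkn1c), where 4.04% and 3.31% of all genes were. In limma without the pair block 0 of the 43 passed, and 0 had an unadjusted p under 0.05, against 0.00666% of probe sets and 0.308% of genes.

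The size of the shift was small. The median over mitosis genes was 0.18 ± 0.16 (0.06, 0.11 and 0.37 in pairs 1 to 3) and over replication genes 0.14 ± 0.11 (0.09, 0.06 and 0.27). The median over all 18193 genes was 0.01 ± 0.01. Over the 11502 genes above the median level of all probe sets it was 0.03 ± 0.03 (0.00, 0.02 and 0.06). The mitosis median exceeded the replication median by 0.04 ± 0.06, with -0.03, 0.04 and 0.09 in the pairs, a gap below its own SD. The 3 Cdk inhibitors had a median of -0.28 ± 0.30. Pair 3 carried most of the shift: its difference was the highest of the pairs in 33 of 43 genes, against 7395 of 18193 genes. Without pair 3 the median was 0.08 for both mitosis and replication genes, and that of the Cdk inhibitors was -0.44; without pair 1 the latter was -0.15.

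Direction was counted by pair, since sizes were small. In all 3 pairs 14 of 23 mitosis genes were higher in the mutant and 0 lower, and 6 of 15 replication genes were higher and 0 lower. Of all genes 12.9% were higher and 9.03% lower in all 3 pairs, and of the 11502 genes above the median level 16.5% and 10.7%. In pair 1 values were exactly equal on both arrays for 32.1% of genes, which cannot count as higher. Such ties held for 3 mitosis genes (Plk1, Cenpf, Kif11), 4 replication genes (Mcm3, Tyms, Rrm1, Gins2) and Ccnd1. In pairs 2 and 3 together 19 mitosis and 10 replication genes were higher, against 30.0% of all genes. Of the 43 genes 37 lay above the median level; among these, 13 of 20 mitosis and 5 of 12 replication genes were higher in all 3 pairs. These counts depended on the probe set: with the probe set classes that can bind several transcripts left out, 8 of 19 mitosis genes and 1 of 13 replication genes were higher in all 3 pairs, against 11.6% of all genes. Without pair 3, 14 mitosis and 6 replication genes were higher in both remaining pairs, against 19.5% of all genes.

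**Figure D1:**
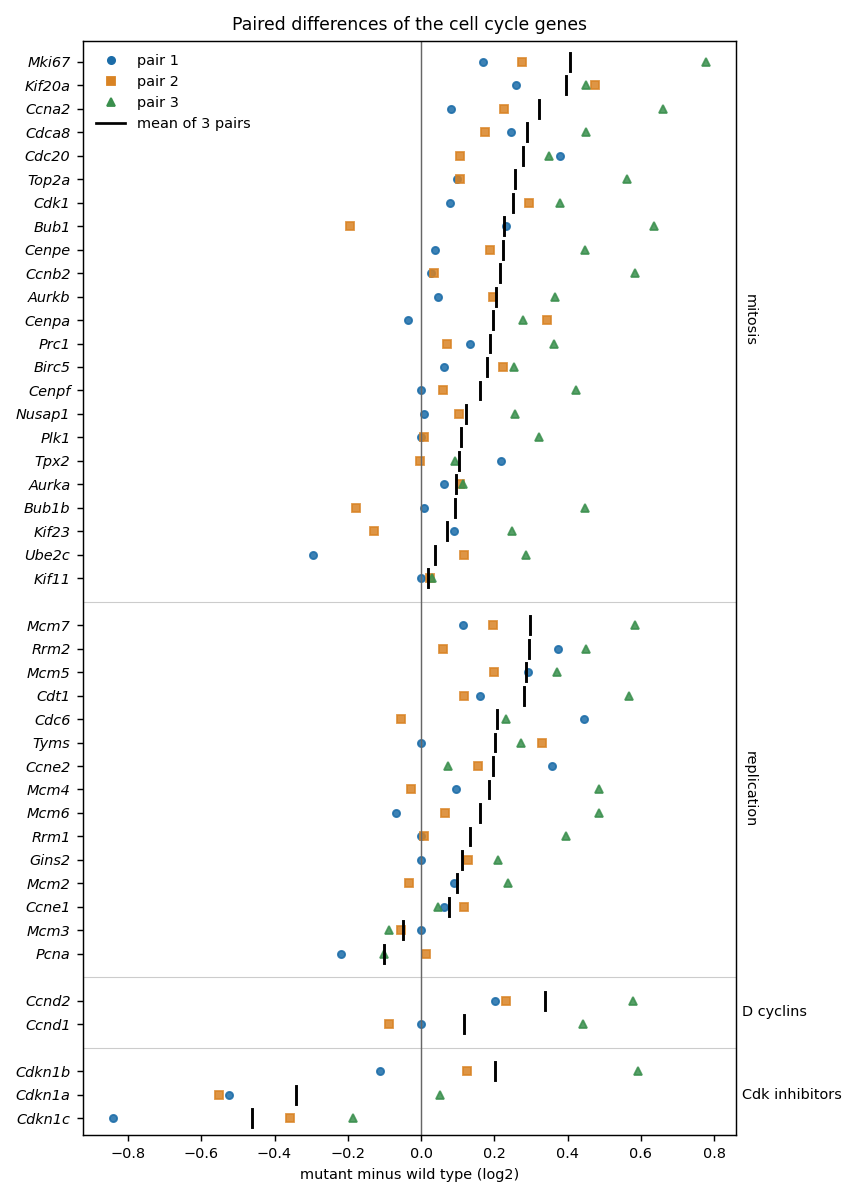
Mutant minus wild-type difference (log2, horizontal axis) of each of the 43 genes (vertical axis), grouped by phase. Each marker is 1 pair of same-numbered arrays and the black bar is the mean of 3 pairs. The means of the 23 mitosis genes lie between 0.02 and 0.41, and the green triangles of pair 3 lie farthest to the right in 33 of 43 rows.

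Mki67, the proliferation marker that coats mitotic chromosomes and whose promoter is shown above, had the largest mean difference of the mitosis genes. Its level was 9.14, 8.57 and 8.68 on wild-type arrays 1 to 3 and 9.31, 8.85 and 9.46 on the mutant arrays. Each mutant array was above its partner, but the genotypes overlapped, because wild-type array 1 was above mutant array 2. Overlap, for this gene and those below, compares arrays of different replicate numbers, whose median levels were unequal. Wild-type arrays 1 to 3 had medians of 6.07, 6.95 and 6.42, close to those of their mutant partners (6.08, 6.94 and 6.38). Overlap or its absence can therefore depend on array level as well as genotype, and the part of array level was not tested. The difference of Mki67 was 0.41 ± 0.33 (1.33-fold; 95% interval 0.07 to 0.74; adjusted p = 0.609), and it was 0.22 without pair 3. Top2a, the topoisomerase that untangles sister chromosomes, differed by 0.26 ± 0.27, and its other probe sets by 0.14 and -0.07.

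Cdk1, the kinase that starts mitosis, and its cyclins were higher in the mutant array of every pair. Cdk1 measured 8.74, 8.83 and 8.39 in wild type and 8.82, 9.13 and 8.77 in the mutant. Mutant arrays 1 and 3 lay below wild-type array 2, so the genotypes overlapped, and the difference was 0.25 ± 0.15 (adjusted p = 0.627). Ccna2, the cyclin of S and G2 phase, measured 7.84, 8.39 and 7.87 against 7.93, 8.61 and 8.53. Its difference of 0.32 ± 0.30 (adjusted p = 0.691) came mostly from pair 3 (0.66), and its other probe set differed by 0.02. Ccnb2, the B-type cyclin of the list that was matched, differed by 0.03, 0.03 and 0.58 in the pairs.

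Kif20a, a kinesin of the central spindle that is needed for cytokinesis, was 1 of 2 genes of the 43 with no overlap between genotypes. It measured 6.003, 5.68 and 5.64 in wild type and 6.26, 6.15 and 6.09 in the mutant. All mutant arrays were above all wild-type arrays, as was the case for 0.682% of all genes, a comparison that also crosses pairs of unequal median level. The difference of 0.39 ± 0.12 (1.31-fold; 95% interval 0.20 to 0.59) was present in each pair (0.26, 0.48 and 0.45) but did not pass (adjusted p = 0.325), and the mean level lay below the median of all probe sets. The other spindle genes differed less. Prc1, which bundles microtubules of the central spindle, differed by 0.19 ± 0.15, Nusap1 by 0.12 ± 0.12, Tpx2, an activator of Aurora A, by 0.10 ± 0.11, Kif23 by 0.07 ± 0.19 and Kif11, the motor that pushes spindle poles apart, by 0.02 ± 0.02.

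The chromosomal passenger complex corrects faulty spindle attachments. Each of its 3 members among the 43 genes was higher in the mutant in each pair. Incenp, a further subunit, was counted with the other mitosis genes described below. Cdca8 (borealin) measured 8.37, 8.03 and 7.82 in wild type and 8.61, 8.20 and 8.27 in the mutant. Every mutant array was above its partner while the genotypes overlapped, and the difference was 0.29 ± 0.14 (adjusted p = 0.531). Both of its other probe sets were near this, at 0.23 and 0.25. Aurkb, the kinase of the complex, differed by 0.20 ± 0.16 and Birc5 (survivin) by 0.18 ± 0.10.

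Cdc20, which activates the anaphase-promoting complex, measured 8.73, 8.80 and 8.25 in wild type and 9.11, 8.91 and 8.60 in the mutant. It was higher in each pair with overlapping genotypes, by 0.28 ± 0.15 (adjusted p = 0.556). Its other probe sets both differed by 0.10, less than the probe set that stood for it. Ube2c, the ubiquitin-conjugating enzyme of the same complex, was lower in pair 1 (-0.29) and higher in pairs 2 and 3 (0.12 and 0.29).

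Kinetochore, checkpoint and kinase genes had mean differences above 0, with signs that differed among pairs in several. Cenpe, a kinetochore motor, differed by 0.22 ± 0.21, Cenpa, the centromeric histone variant, by 0.19 ± 0.20 and Cenpf by 0.16 ± 0.23. A second probe set of Cenpe had the largest difference of all 103 probe sets of these genes (0.44, 0.36 and 1.11 in pairs 1 to 3; mean 0.64, adjusted p = 0.467); it is named after its values were seen. The checkpoint genes Bub1 (0.23 ± 0.41) and Bub1b (0.09 ± 0.32) were lower in pair 2 and higher in the other pairs. Aurka, the centrosomal Aurora kinase, differed by 0.09 ± 0.03 and Plk1, the polo-like kinase, by 0.11 ± 0.18.

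Among replication genes, the 6 subunits of the MCM helicase, which unwinds DNA at the fork, ran from -0.05 to 0.30 in mean difference. Mcm7 measured 10.28, 10.22 and 9.95 in wild type and 10.39, 10.42 and 10.53 in the mutant. The genotypes did not overlap, and the difference was 0.30 ± 0.25 (adjusted p = 0.675), with 0.58 in pair 3. Its 3 other probe sets differed by -0.01, 0.18 and 0.38. Mcm5, whose E2F letters are printed above, measured 8.89, 8.62 and 8.61 against 9.18, 8.82 and 8.98. Its difference was above the SD over pairs, at 0.29 ± 0.09 (95% interval 0.11 to 0.47; adjusted p = 0.461), though the genotypes overlapped and its other probe sets differed by 0.18 and -0.05. Mcm4 (0.18 ± 0.27), Mcm6 (0.16 ± 0.29) and Mcm2 (0.10 ± 0.14) were each lower in 1 pair, and Mcm3 differed by -0.05 ± 0.04. The other probe set of Mcm4 (0.42) and 1 of the others of Mcm6 (0.36) were higher in each pair. The remaining probe sets of Mcm6 and Mcm2 differed by 0.11 each, with signs that differed among pairs. Those of Mcm3 ran from -0.03 to 0.14.

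Genes that license origins and make nucleotides gave similar values. Cdt1, which loads the helicase, measured 8.71, 8.42 and 7.86 in wild type and 8.87, 8.54 and 8.42 in the mutant. It was higher in each pair by 0.28 ± 0.25 (adjusted p = 0.691), with overlapping genotypes. The other probe sets of Cdt1 differed by 0.04 and -0.08. Cdc6, the partner of Cdt1 in loading, measured 4.77, 5.13 and 4.96 against 5.22, 5.07 and 5.19. Its difference was 0.21 ± 0.25 (adjusted p = 0.749), at a mean level below the median of all probe sets. Gins2, of the helicase activator complex, differed by 0.11 ± 0.11. Rrm2, the S-phase subunit of ribonucleotide reductase, measured 8.53, 8.29 and 7.68 against 8.90, 8.35 and 8.13. Its mutant arrays were each above their partners and the difference was 0.29 ± 0.21 (adjusted p = 0.621), whereas its other probe sets differed by -0.09 and 0.20. Rrm1, the partner subunit, differed by 0.13 ± 0.23, and another of its probe sets was lower in all 3 pairs (mean -0.28). Tyms, thymidylate synthase, differed by 0.20 ± 0.18 at a level below the median of all probe sets. Its other probe sets differed by -0.05, -0.09 and -0.04.

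Pcna, the sliding clamp of DNA polymerases, and Mcm3 were the 2 replication genes with a mean difference below 0. Pcna measured 9.95, 10.76 and 10.89 in wild type and 9.74, 10.77 and 10.79 in the mutant. The values followed the pair rather than the genotype, which was not particular to Pcna. Same-numbered arrays deviated together over the whole table (correlations 0.879, 0.818 and 0.746). The difference of Pcna was -0.10 ± 0.11 (95% interval -0.30 to 0.09; adjusted p = 0.759). The E cyclins, which open S phase, differed by 0.08 ± 0.04 (Ccne1) and 0.19 ± 0.15 (Ccne2).

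**Figure D2:**
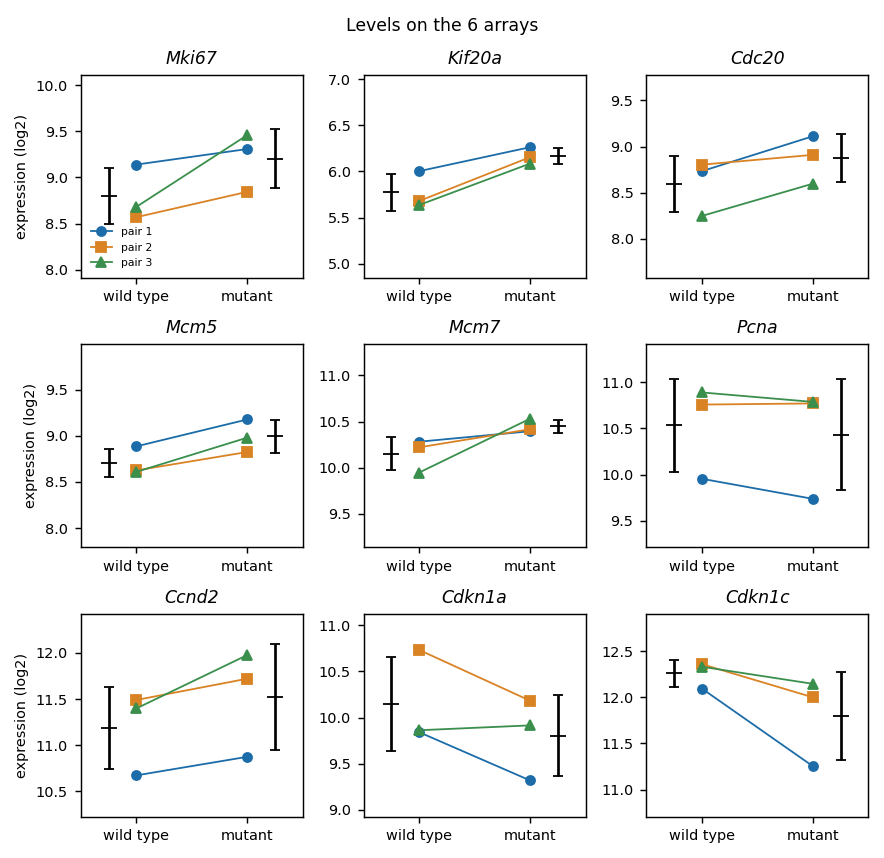
Deposited log2 level (vertical axis, equal span in each panel) of 9 genes on the 6 arrays, with lines joining same-numbered wild-type and mutant arrays and black bars giving mean ± SD of 3 arrays. Lines of Mki67, Kif20a, Cdc20, Mcm5, Mcm7 and Ccnd2 slope upward in each pair, those of Cdkn1c slope downward in each pair, and those of Cdkn1a in pairs 1 and 2 alone; of these genes none passed.

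The D cyclins link growth signals to the cycle in G1, and both had mean differences above 0. Ccnd2 measured 10.67, 11.49 and 11.40 in wild type and 10.88, 11.72 and 11.98 in the mutant. Each mutant array was above its partner, with overlap between genotypes, and the difference was 0.34 ± 0.21 (1.26-fold; adjusted p = 0.546). Of its 7 probe sets 6 differed by 0.05 to 0.38 and the other by -0.26. Ccnd1 measured 9.71, 10.38 and 9.81 against 9.71, 10.29 and 10.25, equal in pair 1 and lower in pair 2. Its difference was 0.12 ± 0.28 (adjusted p = 0.807), and its other probe sets differed by -0.01 and -0.17.

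Of the Cdk inhibitors, 2 of 3 had mean differences below 0. Cdkn1c (p57), which holds differentiating cells out of the cycle, measured 12.09, 12.36 and 12.33 in wild type and 11.25, 12.00 and 12.14 in the mutant. It was lower in each pair, by 0.84 in pair 1 and by 0.36 and 0.19 in pairs 2 and 3, and the genotypes overlapped by mutant array 3 alone. The difference was -0.46 ± 0.34 (1.38-fold lower; 95% interval -0.81 to -0.11; adjusted p = 0.555), and -0.27 without pair 1. It was the only gene of the 43 that was lower in all 3 pairs, which 9.03% of all genes were.

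Cdkn1a (p21), the inhibitor induced by p53, measured 9.84, 10.73 and 9.86 in wild type and 9.32, 10.18 and 9.92 in the mutant. It was lower in pairs 1 and 2, by 0.52 and 0.55, and 0.05 higher in pair 3. The difference was -0.34 ± 0.34 (adjusted p = 0.709), and its other probe set was lower in all 3 pairs (mean -0.19). Cdkn1b (p27) measured 9.22, 10.02 and 8.24 against 9.11, 10.14 and 8.83. Its signs differed among pairs, and the difference was 0.20 ± 0.36 (adjusted p = 0.756).

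Probe sets beyond the best expressed gave less even results. The 43 genes had 103 probe sets with 1 symbol, of which 78 had a positive and 25 a negative mean difference and 0 passed. In the 16 mitosis genes with several probe sets, all had the same sign in 12; in the 12 such replication genes this held in 5. By sets, 44 of 49 were positive in mitosis genes and 26 of 39 in replication genes.

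Further genes of the cycle had the same lean at smaller size, on the same arrays. Of 55 other mitosis genes 0 passed and 48 had a positive mean difference, with a median of 0.11 ± 0.13; Plk4, the kinase that duplicates centrioles (0.33 ± 0.09, adjusted p = 0.386), and Mad2l1, a spindle checkpoint gene (0.28 ± 0.10, 0.475), had the largest. Of 46 measured of 49 other replication genes 0 passed and 40 were positive, with a median of 0.06 ± 0.07. Uhrf1, which carries DNA methylation through replication, differed by 0.39 ± 0.46 and Cdc7, the kinase that fires origins, by 0.29 ± 0.01 (adjusted p = 0.730 and 0.410). The 24 genes of G1 and the Rb-E2F pathway had a median of 0.07 ± 0.09, with 0 passing; Skp2, the ubiquitin ligase subunit that marks p27 for breakdown, differed by 0.35 ± 0.11 (adjusted p = 0.398) and E2f3 by 0.29 ± 0.15 (0.542).

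Inhibitors of the INK4 family and p53 targets lay on both sides of 0. The 4 INK4 genes, which block Cdk4 and Cdk6, lay between -0.07 (Cdkn2d) and 0.07 (Cdkn2a), with adjusted p of 0.860 and 0.798. Of 14 p53 targets measured of 16 listed with Trp53, 0 passed and 6 were positive, with a median of -0.05 ± 0.05. Perp, a desmosome gene under p53, differed by -0.39 ± 0.17 (adjusted p = 0.413) and Eda2r by 0.29 ± 0.25 (0.680).

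**Figure D3:**
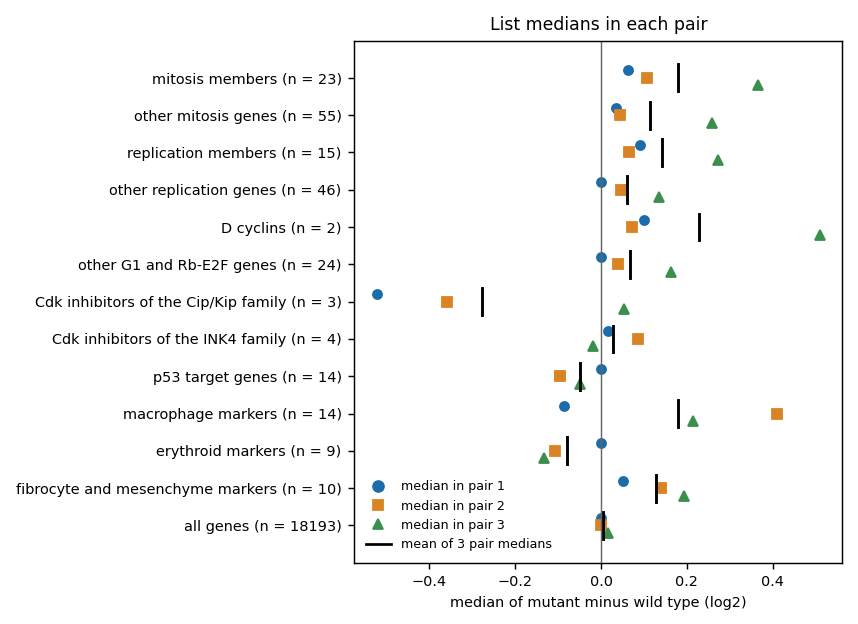
Median mutant minus wild-type difference (log2, horizontal axis) over each gene list (vertical axis, n genes measured) in pairs 1, 2 and 3, with a black bar at the mean of the 3 medians. The mitosis, replication and D cyclin medians lie above 0 in each pair and highest in pair 3, and the Cip/Kip inhibitors lie at -0.52, -0.36 and 0.05.

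Cell types of the tissue and RNA quality varied alongside these values, and their part in them was not tested. In bulk RNA, fewer cells of a type and less RNA per cell cannot be told apart. Strial markers were present, with wild-type means of 9.68 for Kcnq1 of marginal cells, 12.32 for Dct of intermediate cells and 11.06 for Cldn11 of basal cells, where array medians ran from 6.07 to 6.95. Marginal cell markers were lower in all 3 pairs in 6 of 6 genes measured of 8, with 4 passing with the pair block and 1 (Kcne1) without it. The potassium channel subunits Kcne1 and Kcnq1 differed by -4.32 ± 0.30 and -1.67 ± 0.17 (limma adjusted p = 0.00373 and 0.0193), Atp13a5, a P-type ATPase, by -1.86 ± 0.26 (0.0267) and the cotransporter Slc12a2 by -1.22 ± 0.18 (0.0395). The summed linear level of the marginal markers ran from 8231 to 15529 in wild type and from 2743 to 5607 in the mutant. Intermediate cell markers were lower in all 3 pairs in 7 of 11 (summed level 8246 to 14737 and 5973 to 9264) and basal cell markers in 4 of 6. Of the basal markers 1 passed, the gap junction gene Gjb6 (-1.27 ± 0.14, limma adjusted p = 0.0304; 1 without the pair block). Macrophages can divide in young tissue: their 14 markers had medians of -0.09, 0.41 and 0.21 in the pairs and none passed, with summed levels of 6036 to 9598 and 5824 to 12377. The mitosis medians were 0.06, 0.11 and 0.37 in the same pairs, and a link between the 2 lists was not tested. Erythroid markers (9 of 12 measured) had medians of 0.00, -0.11 and -0.13, Schwann cell and glial markers 0.66, 0.07 and 0.03, and neuron markers 1.54, 0.24 and 0.24. Fibrocyte and mesenchyme markers had medians of 0.05, 0.14 and 0.19, with 7 of 10 means above 0, none passing and summed levels of 29149 to 57193 in wild type and 32623 to 60205 in the mutant. Medians were 0.09, 0.13 and 0.12 for cartilage and bone, -0.29, -0.15 and 0.04 for endothelium, and 0.00, -0.08 and 0.00 for lymphoid cells and neutrophils. No listed marker was at 0, a value these levels do not take. The gap between the Gapdh controls at the 3′ and 5′ ends of the transcript, which widens as RNA breaks down, was 2.28 and 2.57 in pair 1 and between -0.04 and 0.51 in pairs 2 and 3, and its change from wild type to mutant was 0.28, -0.04 and 0.56 in pairs 1 to 3. For the Actb controls the change was 0.34, -0.05 and 0.31, so both controls rose from wild type to mutant in pairs 1 and 3 only. The mitosis, replication and D cyclin medians were largest in pair 3. The E cyclin medians were largest in pair 1 (0.21, 0.14 and 0.06 in pairs 1 to 3). Of the Cdk inhibitors, Cdkn1c fell most in pair 1 (-0.84, -0.36 and -0.19) and Cdkn1a in pair 2 (-0.52, -0.55 and 0.05). Cdkn1b differed most in pair 3 (-0.11, 0.13 and 0.59).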

How the data were processed

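Stria vascularis RNA from 6 pools of 10 mice was measured on 6 arrays. The deposited values are log2 levels, 1 per probe set, from RMA (background correction, quantile normalization and summary of probes), a tool that the submitters' processing notes name without version or settings; that they are log2 follows from their range, 2.33 to 14.6. Values were used as deposited; 64 of 45101 probe sets were controls and were left out, with no filter on level. Of 45037 tested, 34945 had 1 gene symbol, 932 several and 9160 none.

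The test was limma 3.58.1 in R 4.3.3 (two-sided, moderated by eBayes with its default prior, Benjamini-Hochberg adjustment), with the replicate number as a block. An exact permutation test of 3 against 3, which ignores the pairs, could not go below p = 0.1. A permutation within pairs has fewer arrangements and a higher floor. Same-numbered arrays deviated together (correlations 0.879, 0.818 and 0.746), and 34.2% of probe sets were exactly equal in pair 1, 2.63% in pair 2 and 3.10% in pair 3. RMA run on each pair could give this; no label says how it was run. The fit was tested on simulated data.

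The genes and lists were chosen with earlier results of these data known. Full values are given for D cyclins, Cdk inhibitors, Mki67, Pcna, and, of mitosis and replication genes, the 5 with the largest difference and the 2 with the highest level; from other gene lists, means of the genes that passed or else of the 2 with the largest difference. Cell type lists without a passing gene are given by medians and counts. Alternatives were no block, a filter on level, quantile normalization, median centring, eBayes trend and robust options, array weights, averaging the probe sets of a gene, probe set classes left out (names ending x_at, s_at or a_at) and leaving out each pair. Counts by pair under these were added after seeing the data. Of 305 listed genes 17 were not matched. Promoters came from RefSeq, GRCm38.p6.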

Additional observations from a re-analysis of the deposited data

How the results depend on the processing

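Of the 43 cell cycle genes 0 passed under any alternative run, with a smallest adjusted p of 0.154 (Kif20a, mean of probe sets, which tests fewer features). The medians of the 4 phase groups moved by less than their SD over pairs. This was fixed in advance for the runs without 1 pair, without the block and with eBayes options. Only the other runs could have moved them further. Among all probe sets 5 higher and 37 lower probe sets passed with the pair block and 1 and 2 without the replicate block; 8 higher passed with eBayes trend and robust options, and 70 lower with array weights. Leaving out 1 pair gave 0 to 3 higher and 0 to 4 lower. Without the block the 43 cell cycle genes still had 0 calls, while marginal cell marker calls went from 4 to 1 and basal cell marker calls from 1 to 0.

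The sign turned for 8 genes. With array weights Bub1b was -0.0018 and Ube2c -0.015; with the mean of probe sets Kif11 was -0.0066, Mcm3 0.036, Rrm1 -0.054 and Ccnd1 -0.021. Leaving out each pair gave -0.085 to 0.23 for Bub1b, -0.088 to 0.20 for Ube2c, -0.019 to 0.17 for Kif23, -0.0015 to 0.28 for Mcm6 and -0.044 to 0.22 for Ccnd1; the cause was not tested. Signal over background is not given, so what it limits was not tested.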

Other observations

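Cdkn1c lies on the same chromosome as Kcnq1, in an imprinted gene cluster, and the genes around it were looked at after these values were seen. Among genes with a probe set, Kcnq1, the potassium channel of marginal cells, is the third before Cdkn1c in the RefSeq order, and it fell by 1.67 ± 0.17 (limma adjusted p = 0.0193 with the pair block and 1 without it). Genes were ordered by their start coordinates alone, so a gene placed between 2 others can overlap 1 of them. The 2 placed between Kcnq1 and Cdkn1c had small differences: Kcnq1ot1, the noncoding RNA of the cluster, 0.08 ± 0.28 and 4933417O13Rik -0.12 ± 0.23. On the other side Slc22a18 differed by -0.12 ± 0.16 and Phlda2 by -0.05 ± 0.04, both imprinted with Cdkn1c. Of the 8 genes on either side Kcnq1 alone passed with the block. Tssc4 (-0.33 ± 0.10) and Cd81 (-0.21 ± 0.03) were lower in all 3 pairs without passing (adjusted p = 0.399 and 0.564).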
